A study of Mus musculus with 2 samples.

Results

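The Acan-positive chondrocytes of mouse ear skin were 126 of 23878 cells kept from a pair of single-cell RNA-seq (scRNA-seq) libraries, 36 of 12213 in the control library and 90 of 11665 in the allergic contact dermatitis (ACD) library. They were chosen by measured gene levels: a cell had no UMI (unique molecular identifier, 1 counted mRNA molecule) of the leukocyte gene Ptprc or the fibroblast gene Pdgfra, and at least 3 UMIs in all of the cartilage genes Comp, Col9a1, Hapln1 and Cilp2, which 4656 cells did. Each such cell was scored for 5 sets of 4 genes, as the mean of ln(1 + UMIs per 10000) over a set. A member's score for Acan, Col9a3, Corin and Dgat2 (the Acan score) had to be the highest of the 5 and at least 0.5. The other 4 sets were led by Cytl1 and Wif1 (with Msmp and Trf), Ucma and Smoc1, Angptl7 and Cilp2, and Gdf5 and Scara3. The levels of these genes in the members describe the choice and are not findings.

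Both libraries came from ear skin of ICR mice, which the labels give as 7 to 8 weeks old and the methods as male. In the ACD group the back was painted with 1.0% DNFB (2,4-dinitrofluorobenzene, a hapten that makes the immune system react to the skin's own modified proteins), the ears with 0.2% DNFB 6 days later, and ear skin was taken at 60 hr. The control group is labelled as healthy control ear skin, with no vehicle named. Each condition was 1 library, and how many mice went into it is not given in the sources used here, so there are no replicates, the conditions could not be tested against each other, and every interval in parentheses is an exact 95% interval for counting error only.

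The ear is stiffened by a sheet of elastic cartilage, whose chondrocytes lie in a matrix of type II, IX and XI collagens, the proteoglycan aggrecan and a mesh of elastic fibres. Aggrecan is the product of Acan and holds water through its chondroitin sulfate chains, while SOX9 is the transcription factor that keeps a cell a chondrocyte. Mouse ear chondrocytes are also known to store neutral fat in droplets, which calls on the enzymes of fatty acid and triglyceride synthesis. In contact dermatitis, T cells entering the skin release cytokines, interferon-gamma among them, to which resident cells respond by raising antigen presentation genes.

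Chondrocyte genes that the rule did not use were present in the members. SOX9's own mRNA, Sox9, had a level of 886 UMIs per 1000000 UMIs of the members in control and 1003 in ACD, and every level below is in this unit. Col2a1, the main fibrillar collagen of cartilage, had 829 and 1224. 3110079O15Rik, also known as Snorc and a cartilage membrane proteoglycan, had 2053 and 2800. Chad, a collagen-binding protein of the cartilage matrix, had 892 and 847, and Lect1, which encodes the vessel-repelling chondromodulin, had 415 and 655. Of 13 chondrocyte markers outside the rule, 12 reached 50 UMIs over the members, and Matn1 (matrilin-1) had no UMI in either library. The cells were therefore chondrocytes by these markers, but no measurement here dates their maturity. Mmp13 and Ihh, genes of maturing growth plate cartilage, had no UMI in any member. Col10a1, the collagen of hypertrophic cartilage, went the other way, with UMIs in 9 of 36 control and 37 of 90 ACD members. The members are called Acan-positive chondrocytes below.

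The Acan-positive cells shaded into the Cytl1 and Wif1 set, the most abundant cartilage cells here, with 2197 control and 1251 ACD cells. The second-highest score was that of Cytl1, Wif1, Msmp and Trf in 32 of 36 control and 89 of 90 ACD members. The median Acan score was 1.88 in control and 2.09 in ACD, and the median Cytl1 score 1.72 and 1.75. The margin of the Acan score over the next had a median of 0.127 in control and 0.288 in ACD, and it was under 0.25 in 27 of 36 control members but 44 of 90 ACD members. At the threshold, the control members nearest to it had margins of 0.00452 and 0.00794, while 1 cell was tied at 0 and the next outside was at -0.00510. In ACD the nearest inside were 0.0152 and 0.0240 and the nearest outside -0.0104 and -0.0204. Only 3 members had an Acan score under 0.75, all 3 of them control cells. The members thus differed between the libraries in how clearly the rule set them apart, and values for the cells with a margin of at least 0.25 (9 control, 46 ACD) stand beside the results that they change.

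**Figure D1:**
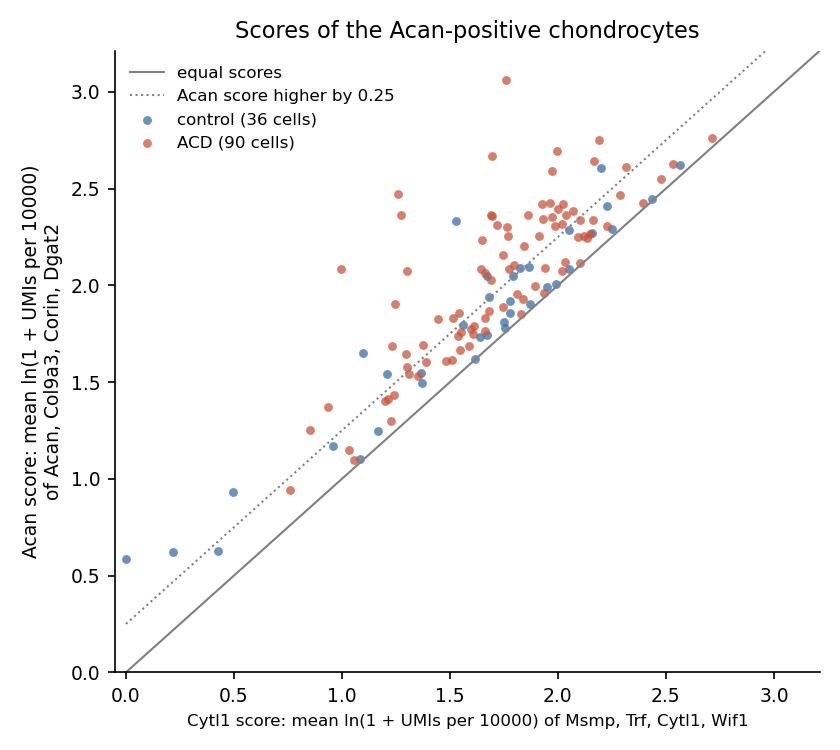
Each point is 1 of the members, placed by its Cytl1 score (x axis) and its Acan score (y axis), both as mean ln(1 + UMIs per 10000), blue for control and red for ACD. Most members lie close above the line of equal scores, and 46 of 90 ACD but 9 of 36 control members have an Acan score at least 0.25 above their next.

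The libraries held 12895 and 13163 barcodes with 99037698 and 126566870 UMIs, and kept cells with Ptprc numbered 971 in control and 4189 in ACD. Median depth in the members was 9053 UMIs and 2877.5 genes per cell in control and 13001.5 UMIs and 3476 genes in ACD, and mitochondrial UMIs were 3.14% and 3.13% of a member's UMIs at the median. The members summed to 349747 UMIs in control and 1206388 in ACD, so 3 UMIs corresponded to 8.58 and 2.49 per 1000000. Of the barcodes, 50 occurred in both libraries, none of them a member. A member with at least 20 UMIs of another cell type's markers was found once in control (54 pericyte UMIs) and 3 times in ACD (1 with Schwann cell UMIs and 2 with red cell UMIs, up to 3517), and T cell, myeloid, neutrophil, mast cell, keratinocyte, endothelial, melanocyte and muscle markers reached 20 UMIs in none.

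The members made up 0.295% (0.207 to 0.408) of kept cells in control and 0.772% (0.621 to 0.948) in ACD, which is 1.39 (0.82 to 1.99) higher on the log2 scale. As a share of the cartilage cells past the gate, they were 36 of the 2925 control cells (1.23%, 0.863 to 1.70) and 90 of the 1731 from ACD, which is 2.08 (1.51 to 2.68) higher. Among the same kept cells the Cytl1 and Wif1 set had a log2 ratio of -0.75 and over gated cells -0.06. The number of kept Ptprc-positive cells also differed (971 and 4189), and its part in the share of kept cells was not tested. A cell's place in the set also depends on Dgat2, whose level in the members was 243 in control and 529 in ACD. With 1 library a group, a larger share of such cells in the ear and a library that caught more of them cannot be told apart.

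Compared with the other cartilage-gated cells of their own library, the members had 47 genes at least 2-fold higher in both libraries and 47 at least 2-fold lower, of 4043 genes with at least 50 UMIs over the members. This describes the cells that the rule picked and is no test. Scd1 encodes the desaturase that makes oleate for storage fat, and its level was 1132 in control and 1623 in ACD members against 263 and 304 in the Cytl1 and Wif1 set. Eln encodes elastin, the core of the elastic fibre, at 3277 and 7169 against 1403 and 1855. Cidea, which promotes the growth of lipid droplets, was at 103 and 277 against 24.7 and 40.3. Plin2, a coat protein of the droplet, was at 189 and 214 against 53.4 and 75.7. All 4 were higher in the members in both libraries.

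Other genes on the same side had several roles. Xylt1, which attaches the first sugar of a chondroitin sulfate chain, was 1.94 (log2) above the other cartilage cells in control and 1.80 in ACD. Vcan, the proteoglycan versican, was 2.52 and 1.78 above, Nid2, a basement membrane nidogen, 1.75 and 2.14, and Fbn2, a microfibril protein that scaffolds elastin, 1.59 and 2.09. Col10a1, the collagen of hypertrophic cartilage, was 2.93 and 2.33 above, at levels of only 117 and 183, with UMIs in 9 of 36 and 37 of 90 members. Enpp2, the enzyme that makes the signalling lipid lysophosphatidic acid, was 1.79 and 2.78 above. Chrdl2, a secreted antagonist of bone morphogenetic proteins, was 1.75 and 3.11 above, Spink5, a protease inhibitor better known from the epidermis, 1.98 and 2.76, and 1520401A03Rik 2.35 and 2.46.

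Among the genes lower in the members were Cdkn1c, an inhibitor of the cell cycle, with log2 differences from the other cartilage cells of -4.23 in control and -3.44 in ACD, and Thbs1 (thrombospondin-1), with -3.33 and -3.86. Apod, a lipid-binding apolipoprotein, was at -2.93 and -3.03, Wfdc2, a secreted protease inhibitor, at -2.92 and -3.09, and Igf1, a growth factor for cartilage, at -2.25 and -1.98. Fibroblast collagens were also low in the members. Col1a1 stood at 263 and 229 against 718 and 410 in the Cytl1 and Wif1 set, and Dcn, the small proteoglycan decorin, at 1947 and 3274 against 6465 and 6060. Over 5 fibroblast markers the median log2 difference from other cartilage cells was -1.28 and -0.95. Of these markers Dpt, a dermal matrix protein, went the other way, at 1.89 and 0.72.

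By list, the median log2 difference from other cartilage cells was 0.86 in control and 1.05 in ACD over 17 cholesterol synthesis genes, 0.70 and 0.91 over 12 genes of fatty acid synthesis, and 0.87 and 0.92 over 10 cartilage collagens. In both libraries these 3 lists had the highest medians of the cartilage and lipid lists. Cartilage matrix proteins other than collagens went the other way, with -0.75 and -0.53 over 19 genes, of which 0 were at least 2-fold higher and 3 at least 2-fold lower in both libraries. Over all 4043 genes it was 0.05 and 0.07. The collagens included Col9a2, at 1.28 and 1.25, and the type VI collagen Col6a3, at 1.18 and 1.02. Cartilage transcription factors stood near the other cells, with a median of 0.10 in control and -0.18 in ACD over 16 genes, as did lipolysis and fatty acid oxidation, with 0.00 and 0.21 over 8.

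**Figure D2:**
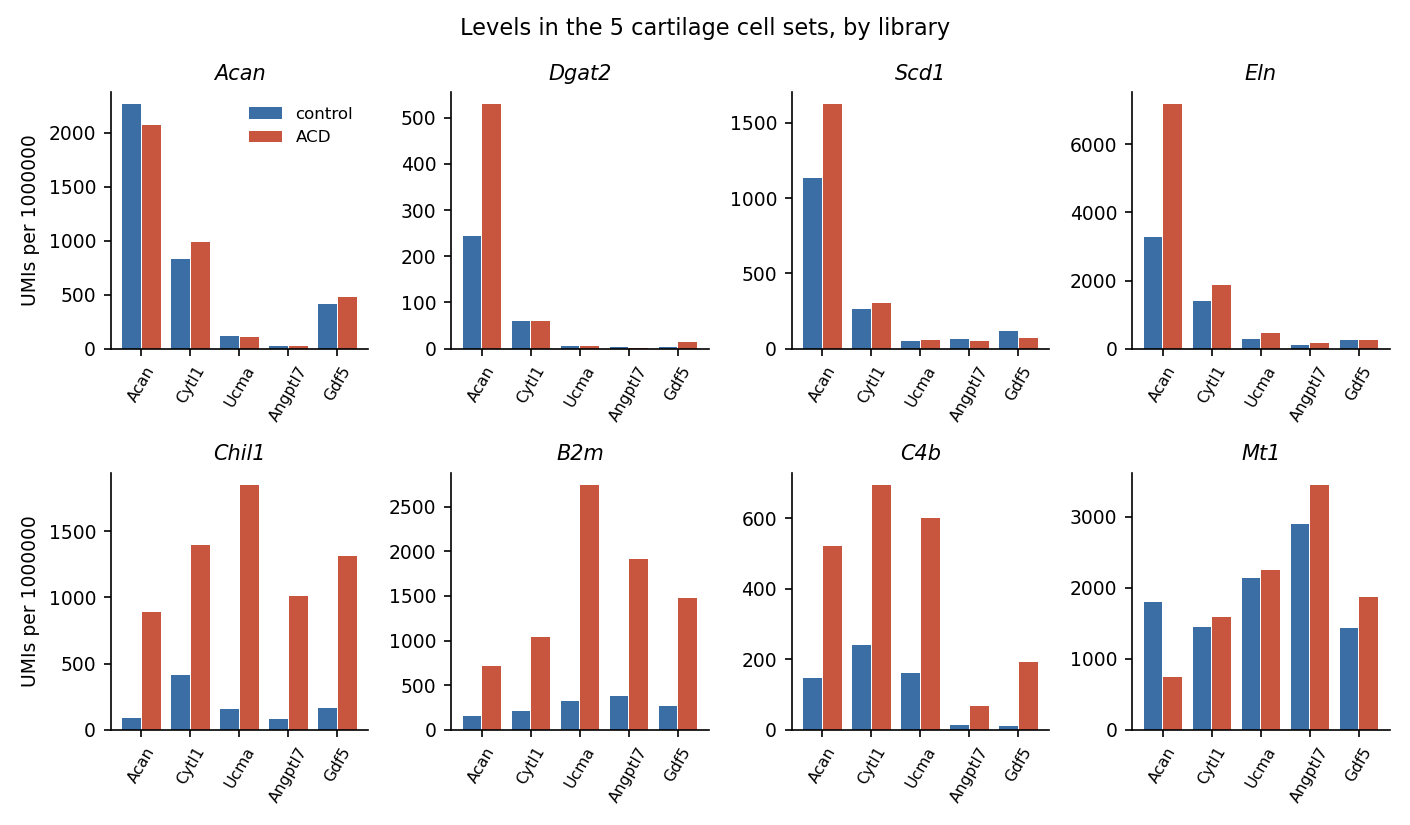
Levels of 8 genes in UMIs per 1000000 (y axis) in the 5 cartilage sets named by their first gene (x axis), blue bars for the control and red for the ACD library, 1 value each with no replicates. Acan, Dgat2, Scd1 and Eln are highest in the Acan set in both libraries, while Chil1, B2m and C4b are higher in ACD in all 5 sets. By level, Mt1 is lower in ACD in the Acan set alone, where 1 control cell held many of its UMIs.

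Between the conditions, 68 of 4043 genes were at least 2-fold higher in ACD members, which is 1.68% of genes tested, and 35 were at least 2-fold lower, which is 0.866%. At 1.5-fold these became 307 genes (7.59%) and 270 genes (6.68%). The ratio adds 10 UMIs per 1000000 on each side, its median over all genes was -0.02 (log2), and the genes of the rule were not counted. Some of the differences rested on single cells: in 11 of the 68 genes more than 50% of the ACD UMIs came from 1 cell, and in 2 of the 35 more than 50% of the control UMIs did. With the top cell of each gene in each library left out, 61 of the 68 and 21 of the 35 were still past 2-fold, and the counts over all genes became 101 higher and 21 lower. The minimum of 50 UMIs was set over both libraries, of which ACD held more. A gene of equal level at that minimum would have 11.2 UMIs in control and 38.8 in ACD. Of the 68 genes 41 had fewer in control, and so reached the minimum through the library where they were high, as did 14 of the 35 with fewer in ACD. The counts by list below include such genes and describe the genes tested, not the whole list. Each stands beside the 1.68% higher and 0.866% lower over all genes tested.

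**Figure D3:**
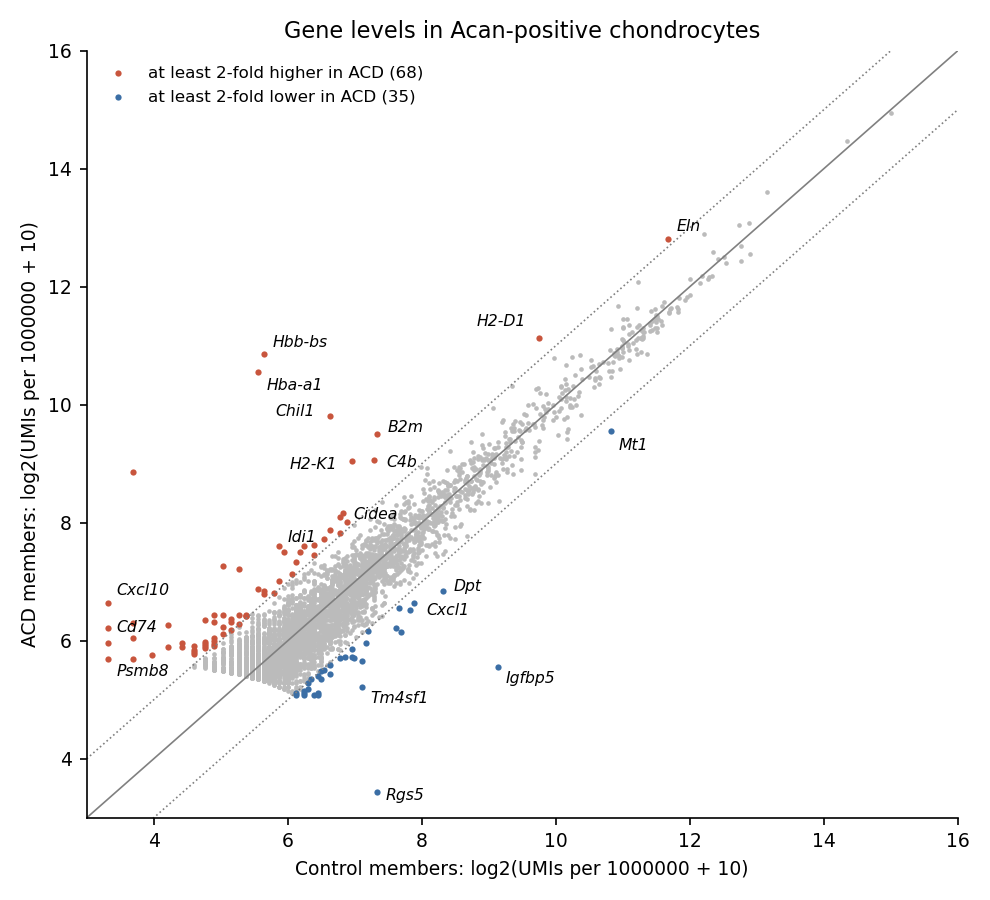
Each point is 1 of 4043 genes, by its level in control (x axis) and ACD members (y axis) as log2(UMIs per 1000000 + 10), with the 68 genes at least 2-fold higher in ACD in red and the 35 at least 2-fold lower in blue, and dotted lines at 2-fold. Most genes lie along the diagonal, H2-D1 and Eln stand out among the abundant genes, and Hbb-bs, Hba-a1 and Rgs5 are among the genes carried by single cells.

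Several antigen presentation genes were higher in ACD members. Of 23 genes of major histocompatibility complex (MHC) class I presentation, 13 were tested, and 6 of them were at least 2-fold higher and none lower (background 1.68% and 0.866%), with a median log2 ratio of 0.68 against -0.02 over all genes. Of the 6, Psmb8 and H2-T23 reached 50 UMIs through ACD alone and the other 4 did not. B2m (beta-2-microglobulin, the shared light chain of class I molecules) had 53 UMIs in 25 of 36 control members and 862 in 83 of 90 ACD members, or 152 (114 to 198) and 715 (668 to 764) per 1000000, 4.72-fold. In single cells its median was 1.26 UMIs per 10000 in control and 3.20 in ACD, and 28 of 90 ACD members were above the highest control member, at 7.09. The other ACD members lay within the control range.

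H2-K1, a classical class I heavy chain, had 114 (81.7 to 156) in control and 519 (479 to 561) in ACD, with a log2 ratio of 2.09 and UMIs in 17 of 36 and 78 of 90 members. H2-D1, the other classical heavy chain here, was at 855 in control and 2230 in ACD, with a log2 ratio of 1.37. H2-T23, a non-classical class I gene, had 4 and 60 UMIs (log2 ratio 1.48), and H2-Q4, a related gene, had a log2 ratio of 1.14. Class I genes are close copies of one another, so the counting of reads between them is uncertain. Psmb8, an immunoproteasome subunit that cuts peptides for class I, had no UMI in 36 control members and 50 UMIs in 18 of 90 ACD members, at least 4.83-fold higher against 3 control UMIs. Chaperones of the pathway moved less, with a log2 ratio of 0.40 for Calr (calreticulin) and 0.01 for Pdia3. The median of the list is the same with Psmb8 at its bound.

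The MHC class I differences depended on which cells counted as members. With a margin of at least 0.25, the log2 ratio of H2-K1 was 0.65 and that of H2-D1 0.43, both under 2-fold, while B2m stayed at 1.51. Within the ACD library, H2-D1 stood at 1455 in the 46 members with a clear margin and at 3032 in the 44 with a narrow one, and B2m at 471 and 967. In the Cytl1 and Wif1 set of the same libraries H2-K1 went from 98.1 to 752, H2-D1 from 674 to 3133 and B2m from 215 to 1039. The level in ACD was thus higher in the Cytl1 and Wif1 cells than in the Acan-positive cells for all 3 genes.

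These genes are abundant in T cells, and free RNA from T cells can enter other droplets. After thinning to 2000 UMIs, 16.7% (6.37 to 32.8) of control members and 58.4% (47.5 to 68.8) of ACD members held B2m, as did 77.7% and 98.4% of cells with Ptprc and Cd3e UMIs, whose median depth was 4317 and 6505 UMIs against 9053 and 13001.5 in the members. Unthinned, the members' shares were 69.4% and 92.2%. T cell markers themselves had no UMI in control members and 26 UMIs in 13 of 90 ACD members, 10 of them in 1 cell, with summed levels of 0 and 21.6 per 1000000. How much of the class I signal came from free RNA was not tested.

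Cd74, the invariant chain of MHC class II, had no UMI in control members and 78 UMIs in 24 of 90 ACD members, at least 7.54-fold higher. It was the only 1 of 10 class II genes with 50 UMIs, and the list summed to 8 UMIs in 7 control members and 182 UMIs in 50 ACD members. Professional antigen-presenting cells make far more of it, and myeloid markers had 3 UMIs in 3 control and 7 UMIs in 6 ACD members. After thinning, 6.0% of T cells in control and 13.9% in ACD held Cd74, against 0% and 10.1% of members. The intervals of the members' shares, 0 to 9.74% in control and 4.73 to 18.3% in ACD, held the T cell share of the same library. In the Cytl1 and Wif1 set it was 0.7% in control and 18.7% in ACD, and in the Ucma and Smoc1 set 0% and 28.6%. How much of the Cd74 signal in members came from free RNA was not tested.

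Interferon-response genes were mostly too sparse to be compared. Of 52 antiviral interferon-stimulated genes, 6 were tested, with none past 2-fold in either direction and a median log2 ratio of 0.36. Ifi27, a mitochondrial interferon-induced protein, stood at 120 and 175, and Ifitm3, which blocks virus entry, at 186 and 223. None of 20 interferon-induced GTPases, of which 18 could be counted, reached 50 UMIs. Their sum was 4 UMIs in 3 of 36 control and 126 UMIs in 30 of 90 ACD members, 38 of them in 1 cell. This is 3.19 (1.80 to 5.09) higher on the log2 scale. Of 12 genes of interferon receptor signalling, 1 was 2-fold higher. This was Socs1, the feedback inhibitor of JAK kinases, with 22 UMIs in 15 of 36 and 206 UMIs in 63 of 90 members (62.9 and 171 per 1000000). After thinning to 2000 UMIs, 11.1% (3.11 to 26.1) of control and 24.7% (16.2 to 35.0) of ACD members held Socs1. The receptor chain Ifnar2, the transcription factor Stat3 and Irf1 had log2 ratios of 0.48, -0.02 and -0.17. Cxcl10, the chemokine that draws CXCR3-bearing T cells, had no UMI in control members and 108 UMIs in 15 of 90 ACD members, at least 10.4-fold higher, with 64 of them in 1 cell.

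Interferons act through short promoter elements, the interferon-stimulated response element (ISRE) and the gamma-activated site (GAS). The 250 bases before the RefSeq start of each gene (GRCm38.p6) were searched on both strands for the ISRE as TTTC, any 2 bases, TTTC and for the GAS as TTCNNNGAA. No promoter of a called gene held both. Of the 68 genes at least 2-fold higher, 48 had a promoter in the table, and 5 (10.4%) held an ISRE and 4 (8.33%) a GAS, against 3.46% and 8.13% of 27025 genes and 3.02% and 6.26% of the 3145 tested genes with a promoter. Of the 35 genes at least 2-fold lower, 26 had a promoter, and 2 (7.69%) held an ISRE and 3 (11.5%) a GAS. Both elements thus occurred in genes of either direction. The 4 shown are among the named genes that were higher in ACD and held an element, with the match in capitals, written along the gene's strand and 5′ to 3′. H2-T23 and Spp1 (ISRE) and Frzb (GAS) also met this and are not shown. A match says only that the letters are there.
B2m (chr2:122147437-122147686, plus strand, ISRE): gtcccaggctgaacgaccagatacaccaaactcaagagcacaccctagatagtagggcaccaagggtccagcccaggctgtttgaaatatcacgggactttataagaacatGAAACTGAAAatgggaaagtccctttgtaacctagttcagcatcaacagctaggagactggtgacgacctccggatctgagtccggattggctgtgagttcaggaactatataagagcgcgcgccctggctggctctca
Cxcl10 (chr5:92348890-92349139, minus strand, ISRE): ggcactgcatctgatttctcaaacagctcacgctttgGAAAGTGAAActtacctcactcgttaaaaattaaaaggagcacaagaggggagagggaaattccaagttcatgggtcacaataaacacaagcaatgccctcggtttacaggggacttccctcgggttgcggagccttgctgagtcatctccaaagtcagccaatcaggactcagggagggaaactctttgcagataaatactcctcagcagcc
Socs1 (chr16:10785537-10785786, minus strand, 2 overlapping ISRE): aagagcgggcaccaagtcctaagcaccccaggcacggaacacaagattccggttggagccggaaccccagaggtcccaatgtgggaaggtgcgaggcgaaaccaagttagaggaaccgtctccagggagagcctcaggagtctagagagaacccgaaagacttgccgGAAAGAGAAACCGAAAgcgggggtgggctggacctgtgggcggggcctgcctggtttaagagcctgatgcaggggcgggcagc
Psmb8 (chr17:34197945-34198194, plus strand, GAS): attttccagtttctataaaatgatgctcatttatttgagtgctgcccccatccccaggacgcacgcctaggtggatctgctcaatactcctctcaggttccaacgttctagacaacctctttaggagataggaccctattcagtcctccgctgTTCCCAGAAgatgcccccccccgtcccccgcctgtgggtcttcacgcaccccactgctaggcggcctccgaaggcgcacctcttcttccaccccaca

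Of 23 complement genes 8 were tested, and 3 were at least 2-fold higher and none lower (background 1.68% and 0.866%), with a median log2 ratio of 0.75. Of the 3, C1s1 and Serping1 reached 50 UMIs through ACD alone. C4b, a complement component that tags surfaces, lies on chromosome 17 from 34728380 to 34743882 (GRCm38, minus strand). It had 51 UMIs in 19 of 36 control and 630 UMIs in 78 of 90 ACD members, or 146 (109 to 192) and 522 (482 to 565) per 1000000, 3.58-fold. Its single-cell median went from 0.76 to 4.40 UMIs per 10000, and 18 of 90 ACD members were above the highest control member. After thinning, 1.9% of T cells in control and 3.6% in ACD held C4b, against 16.7% and 57.3% of members. C1s1, a protease that activates C4, had 7 and 68 UMIs (log2 ratio 1.14). Serping1, the inhibitor of that protease, had 3 and 81 UMIs, a ratio without addition of 2.97 (1.37 to 5.28), but it was -0.37 in the members with a clear margin. C3, the central component, was at 51.5 and 109 and stayed under 2-fold (0.95).

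Chil1, a chitinase-like protein that chondrocytes secrete in inflamed tissue, had the fifth highest ratio of all genes tested. It lies on chromosome 1 from 134182176 to 134190181 (plus strand). It had 31 UMIs in 11 of 36 control and 1074 UMIs in 59 of 90 ACD members, or 88.6 (60.2 to 126) and 890 (838 to 945) per 1000000. A single ACD cell held 279 of the UMIs, and the log2 ratio was 3.06 without the top cells and 3.19 with them. In single cells the median was 0 in control and 1.01 UMIs per 10000 in ACD, and 17 of 90 ACD members exceeded the highest control member. In the Cytl1 and Wif1 set Chil1 was at 412 and 1400, so both levels were higher there.

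The other immune genes went different ways. Of 23 chemokines 5 were tested, 2 of them 2-fold higher and 1 lower (background 1.68% and 0.866%). Both higher ones reached 50 UMIs through ACD alone. Cxcl10 was 1 of the 2, and Ccl5, a T cell and NK cell chemokine, the other, with 53 of its 63 UMIs in 1 ACD member and none in control. Cxcl1, which attracts neutrophils, was the lower one, at 226 and 90.4, with UMIs in 23 of 36 and 28 of 90 members. Of 20 acute-phase genes 5 were tested, 2 of them higher and 1 (Mt1) lower. Cp (ceruloplasmin, the copper carrier) had 3 and 60 UMIs, a log2 ratio without addition of 2.54 (0.92 to 4.85), and reached 50 UMIs through ACD alone. Serpina3n, a protease inhibitor, was at 48.6 and 119 (log2 ratio 1.13). Among 9 tested genes for cytokines and their receptors none was past 2-fold, and the tumour necrosis factor receptor Tnfrsf1a stood at 97.2 and 125.

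Elastin was the most abundant gene past 2-fold. Eln lies on chromosome 5 from 134702593 to 134747323 (minus strand) and had 3277 (3090 to 3472) in control and 7169 (7018 to 7321) in ACD members, with a ratio of 1.13 on the log2 scale. Its median in single cells was 18.1 UMIs per 10000 in control and 55.7 in ACD, 33 of 36 and 86 of 90 members had a UMI, and 11 ACD members were above the highest control member. In members with a clear margin it was 4663 and 7916, or 0.76 on the log2 scale, which is under 2-fold. In the Cytl1 and Wif1 set it was 1403 and 1855. Lox, the enzyme that cross-links elastin and collagen, was at 260 and 480 (0.86), and Fbn2 at 277 and 408 (0.54). Fbn1, the other main fibrillin, was at 320 and 242. Of 13 elastic fibre genes tested, 1 was 2-fold higher (Eln) and 1 lower, the microfibril gene Mfap4 with 28 and 42 UMIs (-1.01), with a list median of 0.37. The ratio of Mfap4 turned to 0.38 without the 3 control members whose Acan score was under 0.75.

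**Figure D4:**
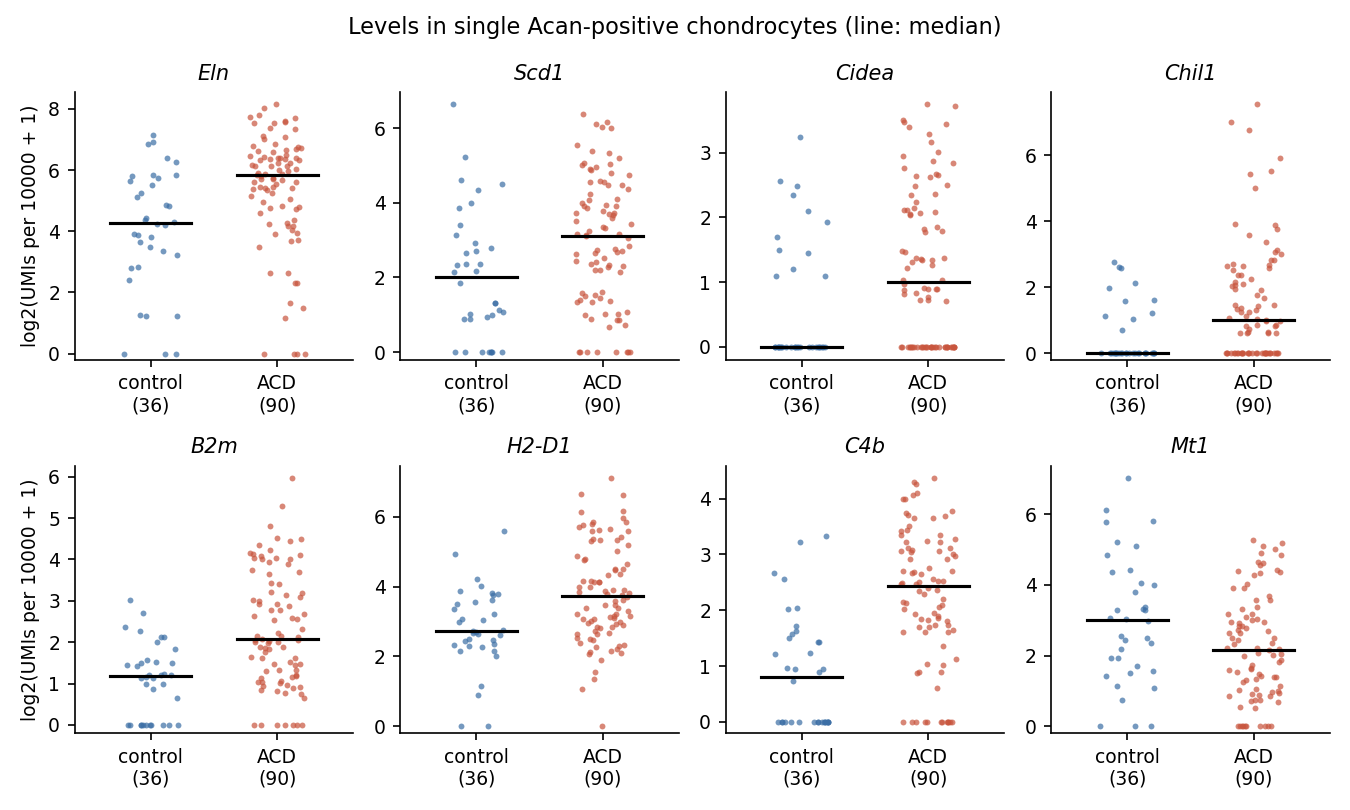
Levels of 8 genes in each member, as log2(UMIs per 10000 + 1) on the y axis, for the 36 control (blue) and 90 ACD members (red), with the median as a black line. The ranges overlap for every gene shown, the ACD medians of Eln, Scd1, Cidea, Chil1, B2m, H2-D1 and C4b are above the control medians, and that of Mt1 is below.

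Cartilage collagens did not pass 2-fold. None of 10 tested was past 1.5-fold in either direction, and their sum was 8955 in control and 8304 in ACD. Col2a1 went from 829 to 1224 (0.56), but its log2 ratio was 0.13 with a clear margin. The type VI collagens, which surround the single chondrocyte, were slightly lower, with log2 ratios of -0.35 for Col6a1, -0.26 for Col6a2 and -0.37 for Col6a3. Col11a1 and Col11a2, which nucleate the type II fibril, stood at 0.10 and -0.18. Acan itself was at 2264 and 2073 and Col9a3 at 1810 and 1865, but both chose the cells. Of 19 tested cartilage matrix proteins the 1 past 2-fold was Chil1. Sparc, a collagen-binding glycoprotein, was at 20895 and 22614, and Bgn (biglycan) at 4643 and 4638. Of 40 protease and inhibitor genes 14 were tested and the 1 past 2-fold was Serpina3n, while Timp3, an inhibitor of aggrecan-cutting enzymes, was at 1069 and 1090.

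Of 12 tested genes that build chondroitin sulfate and hyaluronan, 2 were at least 2-fold higher and none lower (background 1.68% and 0.866%). Papss2, which makes the sulfate donor for the chains and is named in skeletal dysplasia, had 26 UMIs in 15 of 36 control and 226 UMIs in 71 of 90 ACD members, or 74.3 and 187 per 1000000 (log2 ratio 1.23). After thinning to 2000 UMIs, 16.7% (6.37 to 32.8) of control and 29.2% (20.1 to 39.8) of ACD members held Papss2. Slc26a2, the sulfate transporter of chondrocytes, had 11 and 91 UMIs (1.04) and reached 50 UMIs through ACD alone. Both were also higher with a clear margin, at 1.55 and 1.51. In the Cytl1 and Wif1 set Papss2 was at 36.7 and 48.6 and Slc26a2 at 39.8 and 44.3. Csgalnact1, which starts the chain's repeat, was at 45.7 and 68.0, and Ugdh, which makes the glucuronic acid donor, at 309 and 351.

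Over 5 lists of lipid genes, 6 of 56 tested genes were at least 2-fold higher (10.7%, background 1.68%) and none lower. The rule chose the members partly by Dgat2, itself a triglyceride synthesis gene, which was at 243 in control and 529 in ACD members. Its level in the Cytl1 and Wif1 set was nearly equal in both libraries. A clear margin was held by 9 of 36 control but 46 of 90 ACD members. How much of the lipid excess came from this choice of cells was not tested. Of 17 tested genes of cholesterol synthesis, 3 were at least 2-fold higher and none lower, with a median of 0.33. Idi1, which makes the branching 5-carbon unit of the pathway, had 17 UMIs in 14 of 36 control and 222 UMIs in 57 of 90 ACD members, or 48.6 (28.3 to 77.8) and 184 (161 to 210), 3.79-fold. Acat2, which condenses acetyl-CoA, had 9 and 84 UMIs (1.16), and Nsdhl, a sterol dehydrogenase, 7 and 62 (1.03), and both reached 50 UMIs through ACD alone. Hmgcs1, an early enzyme, was at 197 and 283 (0.50). Idi1 was at 77.5 and 81.9 in the Cytl1 and Wif1 set.

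Cidea had 36 UMIs in 12 of 36 control and 334 UMIs in 57 of 90 ACD members, or 103 (72.1 to 143) and 277 (248 to 308), with a log2 ratio of 1.34, and of 1.30 with a clear margin. It was the only 1 of 9 tested triglyceride and droplet genes past 2-fold. Mogat1, which acylates monoacylglycerol, was at 34.3 and 77.9 (0.99) and Plin2 at 189 and 214 (0.17). Scd1 was at 1132 (1023 to 1249) and 1623 (1552 to 1697), a log2 ratio of 0.52, and 1 control cell held 162 of its 396 control UMIs. Without the top cells its ratio was 1.07. Within the ACD library Scd1 was at 2221 in members with a clear margin and 1004 in those with a narrow one. Elovl1, an elongase of very long fatty acids, was at 88.6 and 225 (1.25), though 0.28 with a clear margin. Fasn, the fatty acid synthase, was at 140 and 138. Fabp4, a fatty acid carrier best known from adipocytes, had 23 and 222 UMIs (1.36), in 9 of 36 and 27 of 90 members, with 13 of the control and 78 of the ACD UMIs in 1 cell each. After thinning to 2000 UMIs a cell, 19.4% of control and 11.2% of ACD members held Fabp4, so the share of cells went against the level. Elovl1 and Fabp4 were the only genes past 2-fold among 12 tested of fatty acid synthesis and 11 of lipid uptake, and none of 8 of lipolysis and fatty acid oxidation was. The adipocyte markers Adipoq, Lep and Cfd had no UMI in any member.

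**Figure D5:**
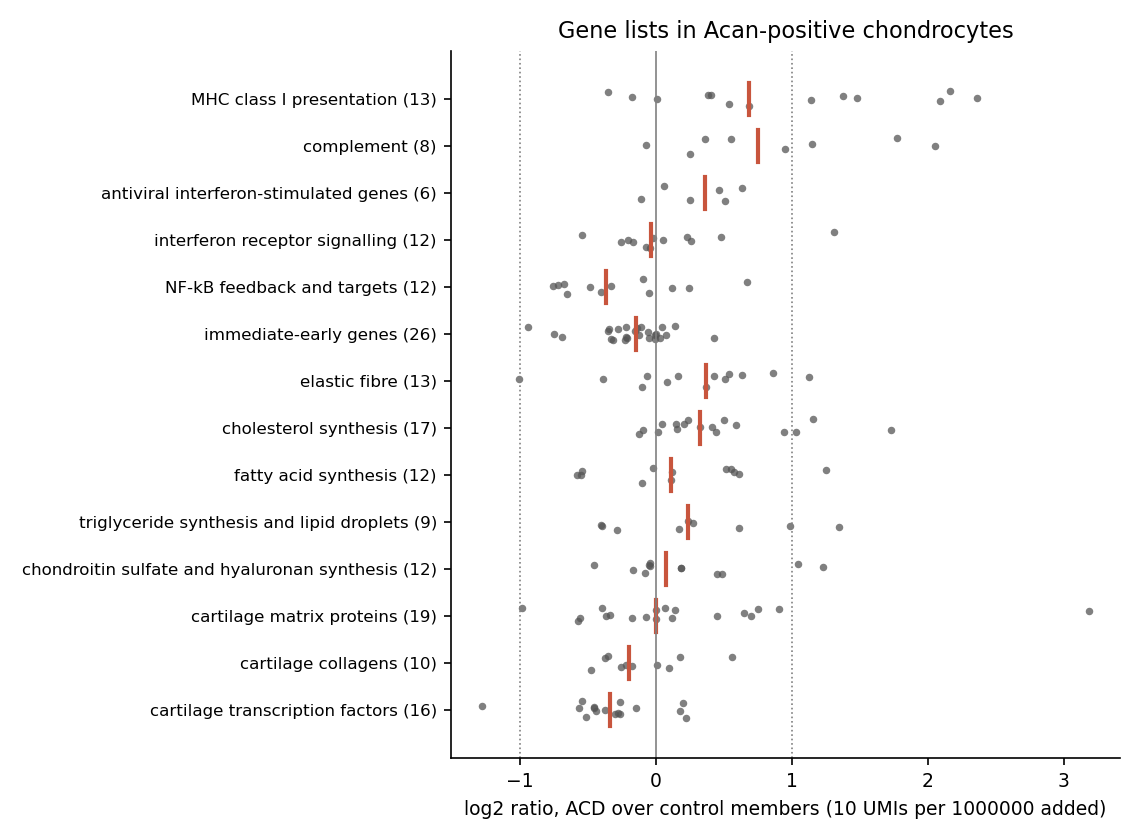
Each point is 1 tested gene of a list, by its log2 ratio of ACD over control members (x axis, 10 UMIs per 1000000 added), with the list median as a red bar, the number of genes tested in parentheses and dotted lines at 2-fold. MHC class I presentation (median 0.68) and complement (0.75) lie to the right, while cartilage transcription factors (-0.34) and NF-kB genes (-0.37) lie to the left.

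The genes lower in ACD were led by Igfbp5, a binding protein of insulin-like growth factors, with 193 UMIs in 12 of 36 control and 45 UMIs in 16 of 90 ACD members, or 552 (477 to 635) and 37.3 (27.2 to 49.9). Of the control UMIs, 94 were in 1 cell, whose Acan score was only 0.62, and the log2 ratio of -3.57 became -3.12 without the top cells. The single-cell median was 0 in both libraries, and 4 of 36 control members were above the highest ACD member. Unthinned, 90.9% of control cells of the Ucma and Smoc1 set and 91.4% of the Angptl7 and Cilp2 set held Igfbp5. How far a few such members made the difference was not tested. The Cytl1 and Wif1 set had it at 272 and 223. Mt1, a metal-binding metallothionein that responds to zinc and stress, was at 1798 (1661 to 1945) and 742 (694 to 792), a log2 ratio of -1.27. It was at -0.89 without the top cells, of which the control one held 199 of 629 UMIs, and at -1.50 with a clear margin. Mt2, its neighbour in the genome and in function, was at 818 and 444 (-0.87). Mt1 was at 1444 and 1590 in the Cytl1 and Wif1 set. Tm4sf1, a surface protein better known from endothelium, was at 129 and 27.4, Ptn, a heparin-binding growth factor of cartilage, at 186 and 64.7, and Dpt, a dermal matrix protein, at 309 and 104 (-1.48). Among 22 tested growth factor and insulin-like growth factor genes, 2 were higher and Igfbp5 was the 1 lower (background 1.68% and 0.866%). Of the 2 higher, Igfbp4 reached 50 UMIs through ACD alone. Hopx, a homeodomain cofactor, was at 77.2 and 24.0, but its log2 ratio was 0.39 with a clear margin.

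Regulators moved less than the genes above. Of 16 tested cartilage transcription factors 1 was past 2-fold, Nfatc2, which is linked to restraint of cartilage formation, at 117 and 42.3 (-1.28), and the median was -0.34. Sox9 stood at 0.18, Sox5 at -0.27, Sox6 at -0.31, Runx1 at -0.57 and Zbtb20 at -0.55. None of 12 tested NF-kB genes was past 2-fold, while 4 were at least 1.5-fold lower and 1 higher. The subunits Relb and Nfkb1 were at -0.76 and -0.72, and Nfkbia, the main inhibitor, at -0.09. None of 26 immediate-early genes was past 2-fold, and their median was -0.15. Fosb was at 1138 and 673 (-0.75) and Jun at 3623 and 3128 (-0.21). Among 13 heat-shock genes Dnajb1, a co-chaperone, was the 1 past 2-fold, at 109 and 248.

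Several lists held no gene past 2-fold in either direction, namely hypoxia and glycolysis (19 tested, median -0.01), endoplasmic reticulum stress and protein folding (22, 0.02), oxidative stress (18, -0.01), cell cycle (5, -0.07) and cell death (12, -0.10). Of the genes in these, Prdx1, a peroxidase, was at 243 and 485 (0.97) and Ddit3, a transcription factor of the stress response, at 140 and 256 (0.83, but -0.09 with a clear margin). Of 10 tested Wnt genes 2 were higher, the ligand Wnt11, with 5 and 61 UMIs (1.32), and the secreted antagonist Frzb, at 57.2 and 130 (1.06). Of 14 genes of bone morphogenetic protein and TGF-beta signalling the 1 past 2-fold was Chrdl2, at 28.6 and 139 (1.95, and 2.54 with a clear margin), with UMIs in 5 of 36 and 36 of 90 members. Spp1 (osteopontin, a mineral-binding protein) was the 1 of 6 hypertrophy genes past 2-fold, with 8 UMIs in 1 control cell and 174 UMIs in 10 ACD cells, 102 of them in 1 cell. Wnt11, Chrdl2 and Spp1 reached 50 UMIs through ACD alone, and the background over all genes tested was 1.68% higher and 0.866% lower.

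The largest ratios belonged to genes of other cell types in single barcodes. Hbb-bs and Hba-a1, the globins of red cells, had 14 and 13 UMIs in control and 2242 and 1813 in ACD, but 1 ACD member held 1875 of the Hbb-bs and 1575 of the Hba-a1 UMIs. Mbp, a myelin protein, had a log2 ratio of 2.62, with 81 of 83 UMIs in 1 cell. Hbb-bt had 60 of 68 UMIs in 1 cell. Igfbp4 (1.54) had 46 of 63 UMIs in 1 cell. Rgs5, a pericyte gene, had all 53 control UMIs in 1 cell and 1 UMI in ACD, a log2 ratio of -3.90. In the set without the 4 mixed barcodes, 60 genes were at least 2-fold higher and 33 lower.

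Thinning every cell to 2000 UMIs left 36 control and 89 ACD members, 1 ACD member being shallower, and took depth out of the shares of cells with a UMI. In control 13.9% (4.67 to 29.5) of members held Chil1 and in ACD 39.3% (29.1 to 50.2), against 1.5% and 3.9% of T cells. H2-K1 was found in 16.7% and 43.8%, below its share in T cells of 58.5% and 94.3%. H2-D1 was found in 69.4% (51.9 to 83.7) and 74.2% (63.8 to 82.9), also below its share in T cells of 96.0% and 99.9%. At least 1 UMI of the antiviral genes and interferon-induced GTPases was found in 97.2% (85.5 to 99.9) and 91.0% (83.1 to 96.0), against 93.4% and 99.3% of T cells. Scd1 was found in 41.7% (25.5 to 59.2) and 71.9% (61.4 to 80.9), against 2.6% and 1.7% of T cells, and Cidea in 19.4% and 39.3%, against 0.2% of T cells in both libraries. Eln was found in 80.6% and 92.1% and in 7.0% and 4.5% of T cells. Mt1 went from 72.2% to 53.9% of members, with 24.3% and 18.3% in T cells. Unthinned, the shares in members were 30.6% and 65.6% for Chil1, 77.8% and 91.1% for Scd1, and 91.7% and 88.9% for Mt1.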

How the data were processed

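Ear skin of 1 control and 1 ACD library was digested, depleted of dead cells and sequenced as 10x 3′ libraries. Alignment by the authors used Cell Ranger (3.1.0 in the header of the files) and the reference mm10-1.2.0, and they deposited UMI counts per gene and barcode for 27998 genes, not normalized. The authors' cluster labels were not used here.

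A cell was kept with over 200 and under 5000 genes, no more than 25000 UMIs (the methods print this limit as a lower one) and under 8% mitochondrial UMIs, which left more cells than the methods state. No doublet caller was used, except that an alternative left out Scrublet calls (1 control and 1 ACD member). The members, gene lists and named genes were chosen with earlier results of these data known. A gene was named if it was among the 10 highest or lowest ratios, the 5 largest gains or losses, the 6 leading genes of a list, the identity markers or the 10 genes furthest above or below other cartilage cells. H2-T23, H2-Q4, Mmp13 and Ihh were named after their values were seen.

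UMIs were summed over members and divided by the members' total. Log2 ratios add 10 UMIs per 1000000 and count genes with at least 50 UMIs over both libraries. Intervals are exact at 95% (Poisson for levels, Clopper-Pearson for shares and ratios) and cover counting error only. A ratio against 0 control UMIs is a lower bound set by 3 UMIs. Results for some genes are not reported here. Symbols shared by more than 1 identifier (56) were left out. Of the identifiers, 27645 were found in GENCODE M21 (GRCm38). Scripts ran on Python 3.11.15 with numpy 2.4.6, scipy 1.17.1, pandas 2.3.3, scanpy 1.11.5 and matplotlib 3.10.9, and were tested on simulated counts. Alternatives were other cell filters, score thresholds, pseudocounts, UMI minimums, size factors and the mean over cells. Leaving out the top cell of each gene and the mixed barcodes was chosen after seeing the data.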

Additional observations from a re-analysis of the deposited data

Results flagged for a closer look

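Igfbp6, a binding protein of insulin-like growth factors, was higher in ACD in the Acan-positive chondrocytes, with a log2 ratio of 1.02 (16 UMIs in 8 control members and 124 UMIs in 17 ACD members), while it was lower in the Cytl1 and Wif1 cells, at -0.80 (202 and 112 per 1000000). It is listed because the direction differed between these cartilage cells, and the difference was not tested. Of the 124 ACD UMIs, 48 were in 1 cell, and the log2 ratio was 0.80 without the top cells, 0.39 without mixed barcodes and -0.11 in members with a margin of at least 0.25, where the direction no longer differed.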

How the results depend on the processing

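The log2 ratio of the share of members (1.39 of kept cells) lay between 1.21 and 1.51 under 7 alternatives, was 2.42 where the Acan score had to be at least 0.25 above the next, and 2.08 over cartilage-gated cells. The count of genes at least 2-fold higher (68) became 128 with that margin (25 of the 68 among them, with 2025 genes tested), 107 with 1 UMI per 1000000 added, 139 with at least 20 UMIs, 170 with no minimum and 307 at 1.5-fold. The count of genes at least 2-fold lower (35) became 66 with 1 UMI added, 97 with at least 20 UMIs, 174 with no minimum, 270 at 1.5-fold and 21 with the top cell of each gene left out, where 101 were higher. With the margin 39 were lower, 6 of them among the 35. With scores at 2000 UMIs per cell, 56 were higher and 26 lower, and 32 of the 68 and 12 of the 35 were among them. Fewer UMIs let in genes whose ratio rests on a few molecules. The directions that turned were Hopx (0.39), Igfbp6 (-0.11), Serping1 (-0.37) and Rgs5 (0.00) with the margin, Mfap4 (0.38) with an Acan score of at least 0.75, Hba-a1 (-0.14), Mbp (-0.14) and Rgs5 (0.12) without mixed barcodes, and Rgs5 without Scrublet calls (0.12) or its top cell (0.00). For Hopx, Igfbp6, Serping1 and Mfap4 the cause was not tested. For the others the alternative leaves out the 1 or 2 cells that held most UMIs. With 36 control members and 349747 UMIs, a control level under 8.58 UMIs per 1000000 (3 UMIs) could not be told from 0. No paired analysis was possible because each condition was 1 library. No library could be left out for the same reason.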
